A study of Homo sapiens with 20 samples.

Results

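The genes described here encode the subunits of the proteasome, the factors that assemble it and 2 proteins that control its transcription. They were chosen by symbol alone, as every gene named PSMA to PSMG with a number, together with POMP, ADRM1, NFE2L1 and DDI2, and no measured value is part of the rule. This gave 52 of the 58735 identifiers in the count tables. They comprise 19 genes of the core particle, 10 of the base, 8 of the lid, 5 activators or inhibitors, 8 assembly chaperones and 2 genes of transcriptional control.

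The study exposed AC16 cells to gas in an air–liquid interface system, in which cultured cells meet the gas directly. AC16 is an established human line made by fusing adult ventricular cardiomyocytes with transformed fibroblasts, and it divides in culture. There were 5 mRNA libraries after e-cigarette aerosol and 5 after filtered air, the control gas in the same kind of system. Culture medium was the same for both groups, and the labels name no other agent, no genotype difference and no batch. No source used here gives the aerosol's composition, dose or exposure time. The replicates are called biological, with no word on separate cultures, so p-values measure the spread between these libraries. AC16 is 1 line, and its cardiomyocyte markers were scarce: of 15 listed markers, 8 lay below 0.1 CPM (counts scaled to the size of the library) in both groups, among them TNNT2, MYH6, MYH7, MYL2 and NKX2-5. The summed level of the 15 was 37.5 to 70.3 CPM in aerosol and 30.3 to 54.9 CPM in air libraries, carried mainly by TTN and GATA4. The 8 fibroblast markers summed to 5953 to 6771 CPM in aerosol and 7913 to 8605 CPM in air libraries. VIM and COL1A1 carried most of this sum, and VIM averaged 3912 CPM after aerosol and 5532 CPM in air. Of these markers only VIM passed the edgeR test described below. COL1A1, COL1A2, DCN and THY1 also averaged lower after aerosol, while COL3A1, LUM and PDGFRA averaged higher. Markers of endothelium (5 genes, at most 3.28 CPM in aerosol and 1.59 CPM in air) and leukocytes (6 genes, 33.2 to 55.0 CPM in aerosol and 35.5 to 60.4 CPM in air, with CD68 the only one above 1 CPM) were low in both groups. The part of these differences in the results below was not tested.

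Libraries held 60482726 to 72099157 counts after aerosol and 65902331 to 88806394 counts in air. On the first principal component of all tested genes, aerosol libraries 4 and 5 lay at 82.2 and 206 and the other 8 between -50.7 and 1.11. They also had the highest shares of mitochondrially encoded counts (18.1 and 19.5%, against 12.4 to 14.5% in the other aerosol libraries and 7.75 to 10.3% in air). MALAT1, a nuclear non-coding RNA, was at 7486 to 44760 CPM after aerosol and 2797 to 3765 CPM in air, so both measures moved with the exposure, and their part in the results was not tested. Counts of genes are therefore also given without aerosol libraries 4 and 5.

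The proteasome is the large protease that degrades proteins tagged with ubiquitin. Its core particle is a barrel of alpha and beta rings, in which PSMB5, PSMB6 and PSMB7 carry the cutting sites. A regulatory particle caps the barrel: its base unfolds substrates with ATPases, and its lid removes the ubiquitin chain. Cells that are short of proteasome activity raise its subunit genes together through the transcription factor NFE2L1, which the protease DDI2 cuts into its active form. Heart muscle relies on this pathway for the turnover of contractile proteins.

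After aerosol, 6 proteasome genes fell and none rose, out of the 50 that passed the filter on low counts (edgeR quasi-likelihood test with Benjamini-Hochberg adjustment over 20166 genes, adjusted p under 0.05). The 6 were the core genes PSMB3, PSMB4, PSMB5 and PSMB7, the base gene PSMD2 and the lid gene PSMD8, with mean levels at 53.6 to 70.3% of those in air. Among all tested genes, 1.39% were called lower and 1.62% higher (3.01% in all), a split of 281 against 327 that became 171 against 482 with upper-quartile scaling and 318 against 244 with scaling by library size alone. The median log2 fold change (aerosol over air) of the 50 was -0.28, against -0.004 over all tested genes, and 43 of the 50 lay below 0, against 50.4% of all tested genes. At an unadjusted p under 0.05, 21 members were lower and none higher, against 9.48% and 8.78% of all tested genes. DESeq2 called 14 members lower, where 3.36% of genes with an adjusted p were called lower and 4.76% higher. Limma-voom called 12 lower, where 2.72% of genes were called lower and 2.87% higher. Both sets included the 6, and neither tool called a member higher. Without aerosol libraries 4 and 5, 9 members fell and none rose, again including the 6, where 1.02% of all genes were called lower and 0.843% higher.

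The background was also taken at higher levels, since 47 of the 50 members averaged 10 CPM or more. Of the 9212 tested genes at that level, 2.85% were called lower, 1.93% higher and 57.5% lay below 0, with a median of -0.07. Of the 47 members, 6 were called lower and 40 lay below 0, with a median of -0.26. The plot of cumulative shares sets the 2 distributions side by side.

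**Figure D1:**
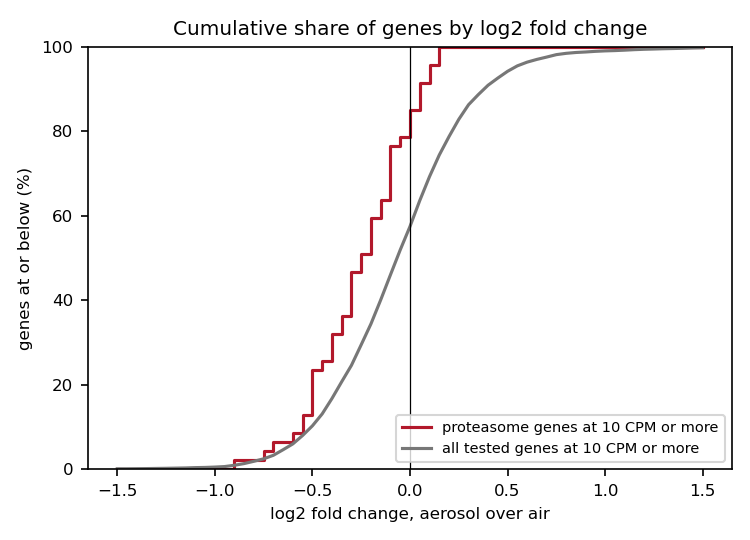
Cumulative share of genes (%, vertical axis) at or below each log2 fold change of aerosol over air (horizontal axis), for the 47 proteasome genes (red) and all 9212 tested genes (grey) that average 10 CPM or more. At a log2 fold change of -0.25 the red curve stands at 51.1% and the grey one at 29.5%.

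The shift was present in every aerosol library. Relative to the mean of the air libraries, the median member stood at -0.30, -0.30, -0.32, -0.27 and -0.21 on the log2 scale in aerosol libraries 1 to 5, and at -0.02, 0.03, 0.03, 0.01 and -0.02 in air libraries 1 to 5. The number of the 50 members that lay below the lowest air library was 32, 30, 31, 27 and 27 in the same 5 aerosol libraries. The share of all tested genes below the lowest air library was not taken for single libraries, so these counts have no background. The 2 libraries that stood apart, 4 and 5, thus showed the weakest shifts of the 5 on this scale. As a share of all counts, with no scaling, the members were instead lowest in these 2. They took 0.374 and 0.361% there, against 0.398 to 0.439% in the other aerosol libraries. In bulk samples, fewer cells of one kind and less RNA per cell cannot be told apart.

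Summed over all 52 genes, the level was 4153 ± 89.1 CPM after aerosol and 5109 ± 77.6 CPM in air (SD, n = 5 each). The aerosol libraries ranged from 4004 to 4241 CPM and the air libraries from 4976 to 5162 CPM, so the groups did not overlap. As a share of all counts, with no scaling, the genes took 0.402 ± 0.0350% after aerosol and 0.529 ± 0.00880% in air. The 14 detected constitutive core genes summed to 967 ± 39.0 CPM after aerosol and 1240 ± 26.6 CPM in air, and the 18 base and lid genes to 2086 ± 68.2 CPM after aerosol and 2564 ± 50.7 CPM in air. The 8 chaperone genes were closer together, at 314 ± 16.7 CPM after aerosol and 349 ± 17.0 CPM in air, and their ranges overlapped (292 to 339 CPM and 333 to 377 CPM). These sums carry no test.

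**Figure D2:**
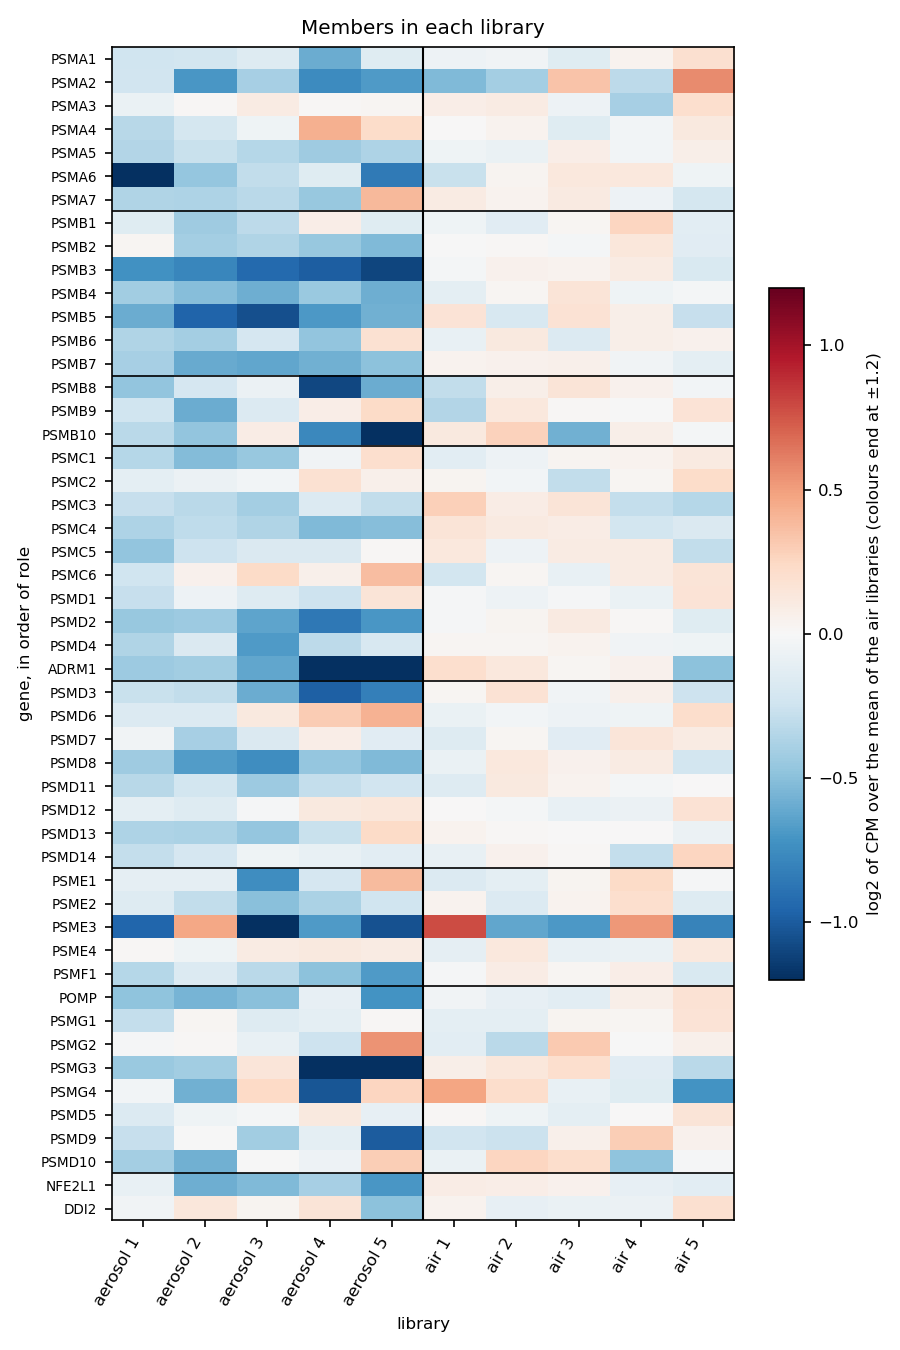
Heat map of the 50 tested genes (rows, in order of role, black lines between roles) in the 5 aerosol and 5 air libraries (columns); colour gives the log2 of CPM over the mean of the air libraries. PSMB3, PSMB4, PSMB5, PSMB7, PSMD2 and PSMD8 are blue in all 5 aerosol columns, while PSMD12 and PSME4 stay near white.

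The core beta ring held most of the genes that fell. Of its 7 constitutive genes, 4 fell and all 7 lay below 0, with a median of -0.51. Of all tested genes that average 10 CPM or more, 2.85% were called lower and 57.5% lay below 0. PSMB3, a structural beta subunit without a cutting site (ENSG00000277791, GRCh38.p14 chromosome 17, 38752741 to 38764225), stood at 45.8, 44.1, 39.6, 38.0 and 35.3 CPM in aerosol libraries 1 to 5, against 74.6, 78.2, 77.7, 81.1 and 66.7 CPM in air libraries 1 to 5. Every aerosol library lay below every air library. Its log2 fold change was -0.90 ± 0.11 (standard error; edgeR adjusted p = 0.00247), the largest fall among the 50 members. PSMB4, another structural beta subunit (ENSG00000159377, chromosome 1, 151399573 to 151401937), was at 155, 145, 138, 152 and 138 CPM after aerosol and 190, 210, 230, 199 and 204 CPM in air. The groups were again apart, and the change was -0.51 ± 0.08 (edgeR adjusted p = 0.00992).

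Of the 3 genes for the catalytic subunits, PSMB5 and PSMB7 fell and PSMB6 did not pass. PSMB5 encodes the chymotrypsin-like site (ENSG00000100804, chromosome 14, 23025851 to 23035220) and was at 34.4, 26.6, 24.9, 32.1 and 34.8 CPM after aerosol, against 58.2, 45.2, 58.3, 54.5 and 42.8 CPM in air. Its groups did not overlap, and it fell by 0.76 on the log2 scale, with a standard error of 0.14 (edgeR adjusted p = 0.0173). This call was lost without air library 1, 3 or 4, with edgeR adjusted p of at most 0.0582. PSMB7 encodes the trypsin-like site (ENSG00000136930, chromosome 9, 124353465 to 124415442). It was at 120.5, 104, 103, 107 and 113 CPM after aerosol and 164, 165, 165, 154 and 146 CPM in air, with no overlap and a change of -0.54 ± 0.08 (edgeR adjusted p = 0.00816). PSMB6, which encodes the caspase-like site, was at 42.5, 41.3, 47.6, 39.4 and 62.3 CPM after aerosol and 51.5, 59.3, 48.9, 57.5 and 56.7 CPM in air. In PSMB6, aerosol library 5 exceeded every air library while the other 4 lay below all of them, and the log2 fold change was -0.23, with a 95% interval from -0.53 to 0.07. The other constitutive beta genes, PSMB1 and PSMB2, had log2 fold changes of -0.18 and -0.33 and did not pass.

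**Figure D3:**
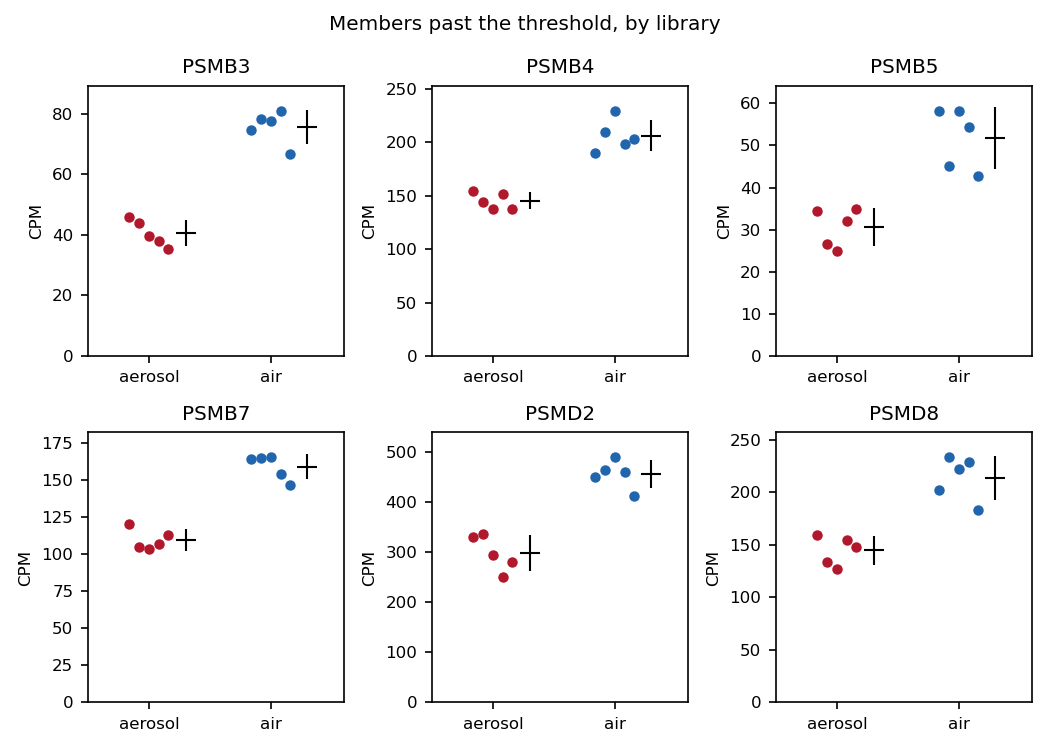
Levels in CPM (vertical axes, from 0) of the 6 genes that fell, 1 point per library, with 5 aerosol libraries (red) left of 5 air libraries (blue); bars give the mean ± SD. In each of the 6 panels all red points lie below all blue points.

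None of the 7 tested alpha ring genes passed in the edgeR test, 5 lay below 0, and the median was -0.26. At an unadjusted p under 0.05 there were 3, DESeq2 called PSMA5 alone, and limma-voom called none. For this role and those below, 9.48% of all tested genes were lower and 8.78% higher at that unadjusted cut. Alpha subunits form the outer rings and the gate of the barrel. PSMA5 was at 39.5, 41.9, 39.9, 37.6 and 39.1 CPM after aerosol and 48.7, 47.9, 53.5, 49.5 and 53.0 CPM in air. Its groups did not overlap, yet its adjusted p was 0.0790 in edgeR, with an estimate of -0.35 ± 0.10. PSMA1 was likewise lower in every aerosol library, by less (-0.26 ± 0.12, edgeR adjusted p = 0.281). Its groups barely parted, with a highest aerosol value of 45.29 CPM and a lowest air value of 45.31 CPM. PSMA2 and PSMA6 had values of -0.54 each with standard errors of 0.22 and 0.18 and overlapping groups. PSMA3 and PSMA4 were at 0.01 and 0.04, and PSMA7 at -0.19. Whether beta and alpha genes differed from each other was not tested. PSMA8, the alpha subunit of the testis, had 0 counts in all 10 libraries, which allows at most 0.0555 CPM in any of them (3 counts). PSMB11, the beta subunit of the thymus, had 5 counts after aerosol and 0 in air, and neither gene was tested.

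In immune cells or after interferon, PSMB8, PSMB9 and PSMB10 take the places of PSMB5, PSMB6 and PSMB7. All 3 were detected and none passed the test in edgeR, DESeq2 or limma-voom, with 1 at an unadjusted p under 0.05 in edgeR. PSMB8 was at 12.3, 14.9, 16.3, 8.00 and 11.3 CPM after aerosol and 13.9, 18.0, 19.1, 17.7 and 16.7 CPM in air (log2 fold change -0.45 ± 0.20, edgeR adjusted p = 0.260). PSMB9 was at 24.9, 19.4, 26.3, 31.1 and 34.5 CPM after aerosol and 23.1, 32.1, 29.7, 29.3 and 32.9 CPM in air (-0.11 ± 0.17). PSMB10 was at 3.28, 2.94, 4.34, 2.39 and 0.333 CPM after aerosol and 4.42, 4.95, 2.75, 4.29 and 4.04 CPM in air (-0.62 ± 0.49). The groups overlapped in all 3 genes.

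The balance between each immune subunit and its constitutive partner was compared as the log2 ratio of their counts within a library, which needs no scaling between libraries. PSMB8 over PSMB5 was -1.31 ± 0.57 after aerosol and -1.60 ± 0.30 in air (SD, n = 5 each; exact two-sided permutation test, p = 0.365, adjusted over 3 pairs p = 0.702). PSMB9 over PSMB6 was -0.78 ± 0.27 after aerosol and -0.90 ± 0.17 in air (exact permutation p = 0.468, adjusted p = 0.702). PSMB10 over PSMB7 was -5.75 ± 1.497 after aerosol and -5.30 ± 0.34 in air (exact permutation p = 0.778, adjusted p = 0.778). No pair passed, in a test whose smallest p is 0.00794. The wide spread of the last pair came from aerosol library 5, at -8.36, and without it the difference (aerosol minus air) was 0.21, against -0.45 with all libraries.

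**Figure D4:**
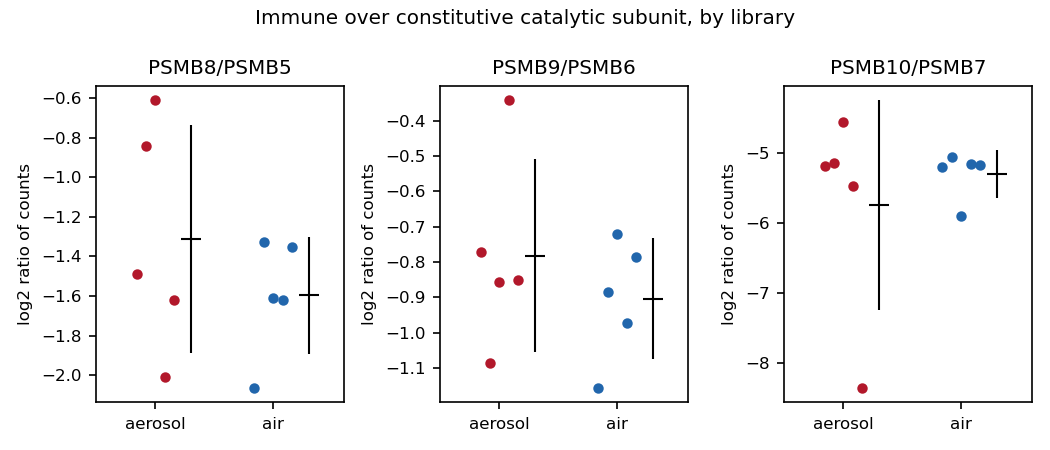
Log2 ratio of counts of each immune catalytic subunit over its constitutive partner (vertical axes), 1 point per library, with aerosol (red) left of air (blue) and bars for the mean ± SD. The groups overlap in all 3 panels, and aerosol library 5 lies far below the others for PSMB10/PSMB7.

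In the base, 1 of 10 genes fell and 8 lay below 0, with a median of -0.25. Among all tested genes at 10 CPM or more, 2.85% were called lower and 57.5% lay below 0. PSMD2, a scaffold subunit that binds ubiquitin-like domains (ENSG00000175166, chromosome 3, 184299241 to 184309050), was at 331, 336, 294, 251 and 281 CPM after aerosol and 449, 464, 489, 459 and 412 CPM in air. It was lower in every aerosol library than in any air library, and its estimate was -0.61 ± 0.10 (edgeR adjusted p = 0.00801). In this role DESeq2 also called PSMC4 and ADRM1 lower, and limma-voom ADRM1. The 6 ATPase genes PSMC1 to PSMC6 ranged from -0.41 to 0.11 and none passed with all libraries. Without aerosol libraries 4 and 5 PSMC1 fell (-0.45, edgeR adjusted p = 0.0433), against an estimate of -0.21 with them. PSMC4 came closest, at 88.7, 93.1, 89.3, 79.4 and 80.9 CPM after aerosol and 128, 124, 122, 98.7 and 102 CPM in air (-0.41 ± 0.11, edgeR adjusted p = 0.0516). Its groups did not overlap. PSMD4 and ADRM1 encode the ubiquitin receptors of the particle. PSMD4 was lower in all 5 aerosol libraries (-0.33 ± 0.11, edgeR adjusted p = 0.135). ADRM1 was at 83.2, 84.2, 73.0, 46.2 and 49.3 CPM after aerosol and 129, 123, 114, 117 and 80.3 CPM in air. Air library 5 lay below aerosol libraries 1 and 2, and the estimate was -0.75 ± 0.19 (edgeR adjusted p = 0.0524). Aerosol libraries 4 and 5 were lowest in ADRM1, and without them its log2 fold change was -0.50 (edgeR adjusted p = 0.103). PSMD1, the other large scaffold subunit, stood at -0.11 ± 0.10.

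In the lid, 1 of 8 genes fell and 7 lay below 0, with a median of -0.19, against the same shares of 2.85% and 57.5%. DESeq2 also called PSMD3 and PSMD11 lower, and limma-voom PSMD3 and PSMD13. PSMD8 (ENSG00000099341, chromosome 19, 38374571 to 38383824) was at 159, 134, 127, 155 and 148 CPM after aerosol and 202, 234, 222, 229 and 183 CPM in air, with no overlap. It changed by -0.56 ± 0.10 (edgeR adjusted p = 0.0128). PSMD3 had the same point estimate with more spread: it was at 108, 106, 86.3, 66.1 and 73.7 CPM after aerosol and 132, 147, 126, 136 and 109.5 CPM in air (-0.56 ± 0.15, edgeR adjusted p = 0.0546). Its groups did not overlap, and without aerosol libraries 4 and 5 it was at -0.38 (edgeR adjusted p = 0.120). PSMD11, a structural lid subunit, was lower in every aerosol library (-0.30 ± 0.09, edgeR adjusted p = 0.0787). PSMD14, the lid's deubiquitinating enzyme, was at -0.15, with a 95% interval from -0.39 to 0.09. PSMD12 was at 227 ± 21.1 CPM after aerosol and 227 ± 16.7 CPM in air (SD, n = 5 each), a log2 fold change of -0.001 with a 95% interval from -0.20 to 0.20. PSMD6 and PSMD7 were at 0.12 and -0.13. PSMD13 was at -0.23, and without aerosol libraries 4 and 5 it fell (-0.41, edgeR adjusted p = 0.0492). PSMD6-AS2, an antisense gene of PSMD6 and no member, averaged 6.63 CPM after aerosol and 2.78 CPM in air and rose by 1.25 on the log2 scale (edgeR adjusted p = 0.0208). Of the 4 tested antisense genes named after members, it alone passed, where 1.62% of all tested genes were called higher. No source used here says whether counting used strand, so reads of a gene and its antisense partner cannot be told apart.

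In 12 of the 50 members every aerosol library lay below every air library, and in none was it the other way round. Over all tested genes this held for 3.93% downwards and 3.52% upwards. Among the 9212 tested genes that average 10 CPM or more, it held for 7% downwards. The 12 were the 6 genes that fell and PSMA1, PSMA5, PSMC4, PSMD3, PSMD4 and PSMD11. All 12 encode constitutive subunits of the core, base or lid. None of the 15 tested genes for activators, the inhibitor, chaperones and transcriptional control was among them. At the shares above a set of 15 can hold none, and whether the roles differed was not tested.

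**Figure D5:**
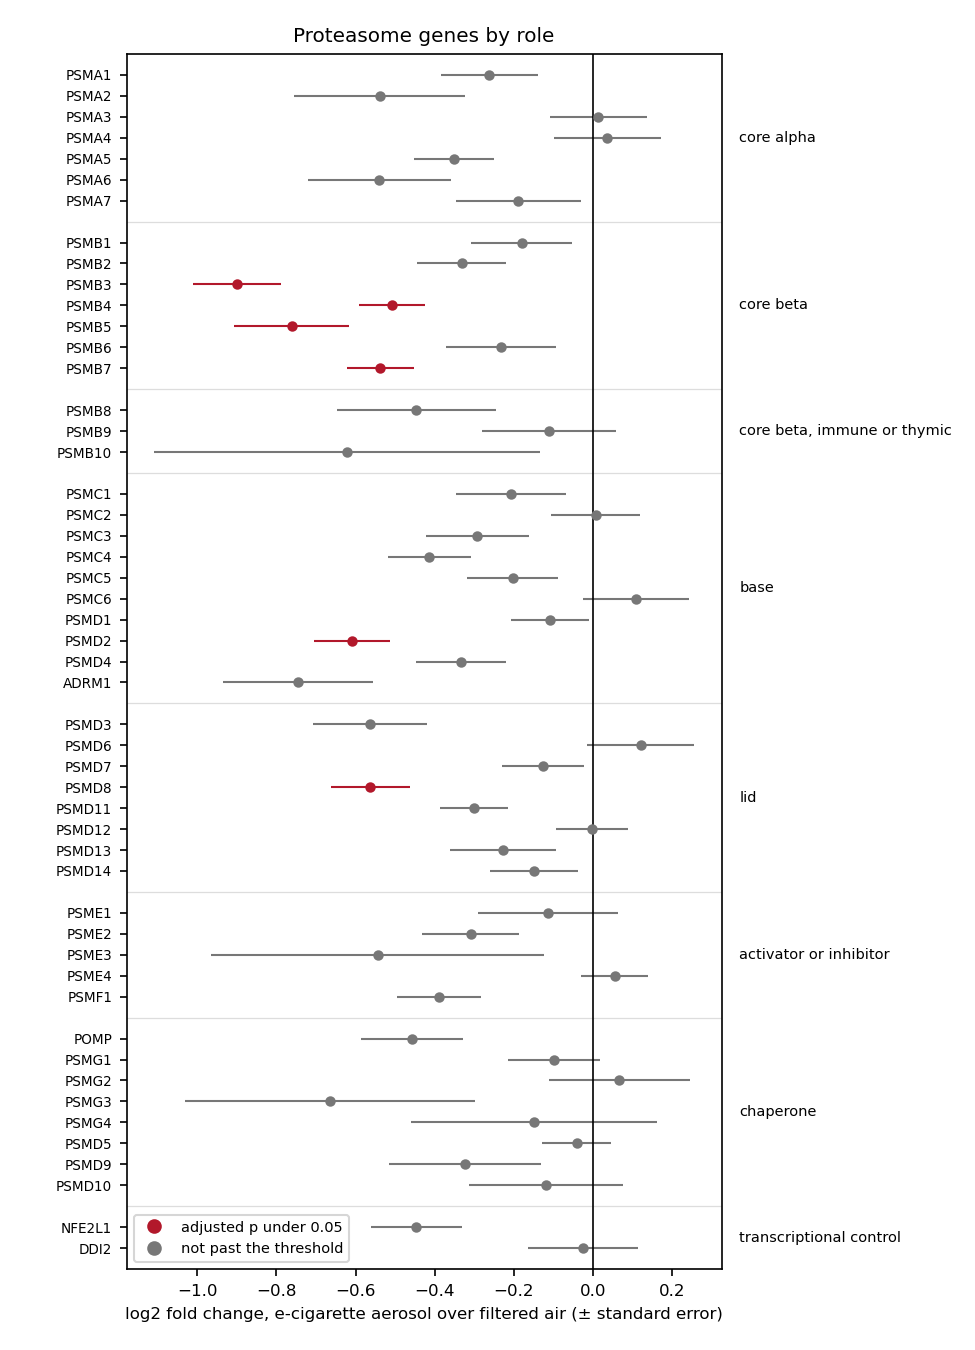
Log2 fold change of aerosol over air (horizontal axis) with its standard error for the 50 tested genes, grouped by role; red marks adjusted p under 0.05 in the edgeR test. The red points are 4 core beta genes, PSMD2 in the base and PSMD8 in the lid, all between -0.90 and -0.51.

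None of the 5 genes for alternative caps and the core inhibitor passed in edgeR, with 2 at an unadjusted p under 0.05; DESeq2 and limma-voom each called PSMF1. PSME1 and PSME2, subunits of the interferon-inducible cap, were at -0.11 ± 0.18 and -0.31 ± 0.12. PSME4, which encodes a large nuclear cap, was at 203 ± 9.75 CPM after aerosol and 195 ± 16.4 CPM in air (0.06 ± 0.08). PSMF1, an inhibitor of the core in vitro, was at 113, 128, 115, 102 and 89.7 CPM after aerosol and 142, 153, 146, 151 and 126 CPM in air (-0.39 ± 0.11, edgeR adjusted p = 0.0705), and aerosol library 2 lay above air library 5. PSME3, the nuclear homolog of PSME1 and PSME2, varied most of all members in both groups. It was at 80.6, 216, 66.1, 97.9 and 75.7 CPM after aerosol and 269, 101, 96.8, 224.5 and 90.0 CPM in air. The 3 high libraries, aerosol 2 and air 1 and 4, were at 216 CPM or more and the other 7 at 101 CPM or less, and the fitted change was -0.54 ± 0.42 (edgeR adjusted p = 0.565).

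Of the 8 assembly chaperone genes none passed in edgeR, 7 lay below 0, and the median was -0.13. POMP was the only one at an unadjusted p under 0.05, and DESeq2 and limma-voom each called it lower. POMP, which guides the beta ring onto the alpha ring and is degraded as the core matures, was at 46.6, 44.4, 46.1, 60.9 and 39.7 CPM after aerosol and 63.5, 60.9, 59.7, 68.3 and 73.5 CPM in air. Aerosol library 4 reached the level of the lower air libraries, and the other 4 lay below them all. The change of POMP was -0.46 ± 0.13 (edgeR adjusted p = 0.0762), and it passed without aerosol libraries 4 and 5 (-0.52, edgeR adjusted p = 0.0366). PSMG1 and PSMG2, which assemble the alpha ring as a pair, were at -0.10 ± 0.12 and 0.07 ± 0.18. PSMG3 and PSMG4, another pair, averaged 4.67 ± 2.60 and 5.12 ± 1.78 CPM after aerosol and 7.41 ± 1.06 and 5.68 ± 1.67 CPM in air (SD, n = 5 each). PSMG3 was lowest in aerosol libraries 4 and 5, at 1.86 and 2.33 CPM, and its log2 fold change of -0.67 ± 0.37 became -0.22 without them. The base chaperones PSMD5, PSMD9 and PSMD10 were at -0.04, -0.32 and -0.12.

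Neither gene of transcriptional control passed in edgeR, while DESeq2 and limma-voom each called NFE2L1 lower. NFE2L1 was at 265, 188, 195, 214 and 174 CPM after aerosol and 301, 297, 292, 263 and 258 CPM in air. Aerosol library 1 lay within the air range and the other 4 below it. The log2 fold change of NFE2L1 was -0.45 ± 0.11, just outside the threshold (edgeR adjusted p = 0.0533), with a 95% interval from -0.69 to -0.20. DDI2 was at 38.5, 43.7, 40.5, 44.1 and 28.2 CPM after aerosol and 40.8, 37.0, 37.5, 37.9 and 45.2 CPM in air, a log2 fold change of -0.03 ± 0.14 with a 95% interval from -0.33 to 0.28. These mRNA levels do not measure the processed NFE2L1 protein.

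The upstream sequences of the genes that fell are shown as a description only. RefSeq promoter entries (GRCh38.p14) matched 46 of the 52 members and 5 of the 6 genes that fell, all but PSMB7. The 250 bases before the outermost start in these entries were searched on both strands for TGACNNNGC, the core of the antioxidant response element that NFE2L1 and its partners bind, for CCAAT, the box bound by NF-Y, and for GAANNTTC, a heat shock element core. CGGAAG, the core bound by ETS factors, was added after the sequences had been read. The windows are chr17:38752491-38752740 (plus strand), chr1:151399323-151399572 (plus), chr14:23035221-23035470 (minus), chr3:184298991-184299240 (plus) and chr19:38374321-38374570 (plus). For all 5 the window ends where the gene's annotated span begins, as it does for 40 of the 46 members; the windows of PSMA1, PSMA6, PSMC2, PSMD6, PSMG1 and PSMG4 lie within that span or across its end. Capitals mark matches to any of the 4 motifs on either strand, so the ETS core also appears as its complement and CCAAT likewise, and no base lay in more than 1 match. PSMB5 and PSMD2 have another annotated start whose upstream bases are not shown.
PSMB3: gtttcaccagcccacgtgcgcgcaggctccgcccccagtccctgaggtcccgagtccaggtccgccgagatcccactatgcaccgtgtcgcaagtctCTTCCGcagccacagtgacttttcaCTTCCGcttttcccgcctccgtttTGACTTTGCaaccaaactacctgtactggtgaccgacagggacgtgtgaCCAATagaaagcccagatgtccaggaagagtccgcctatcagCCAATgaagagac
PSMB4: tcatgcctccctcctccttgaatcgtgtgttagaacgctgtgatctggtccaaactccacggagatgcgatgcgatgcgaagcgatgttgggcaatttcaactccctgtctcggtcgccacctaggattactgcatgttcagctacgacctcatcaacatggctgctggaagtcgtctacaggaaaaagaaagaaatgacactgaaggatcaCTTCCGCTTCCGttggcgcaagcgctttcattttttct
PSMB5: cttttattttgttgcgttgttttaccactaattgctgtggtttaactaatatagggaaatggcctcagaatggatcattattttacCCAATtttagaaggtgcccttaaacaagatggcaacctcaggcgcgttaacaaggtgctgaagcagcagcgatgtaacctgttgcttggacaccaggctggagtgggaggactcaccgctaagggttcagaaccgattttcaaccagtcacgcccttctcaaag
PSMD2: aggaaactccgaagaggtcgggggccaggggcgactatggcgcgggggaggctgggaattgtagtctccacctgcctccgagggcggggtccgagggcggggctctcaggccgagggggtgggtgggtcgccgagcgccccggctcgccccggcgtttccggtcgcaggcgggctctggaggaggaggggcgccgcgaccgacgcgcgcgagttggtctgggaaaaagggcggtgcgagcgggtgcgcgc
PSMD8: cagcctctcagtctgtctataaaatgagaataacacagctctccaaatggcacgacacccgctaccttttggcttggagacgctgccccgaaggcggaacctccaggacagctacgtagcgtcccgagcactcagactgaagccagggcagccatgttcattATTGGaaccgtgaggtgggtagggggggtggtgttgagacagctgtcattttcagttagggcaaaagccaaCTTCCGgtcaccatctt

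Of these 5, PSMB3 alone (20%) held the antioxidant response element core. PSMB3 and PSMB4 each held 2 ETS cores and PSMD8 held 1. PSMB3 also held 2 CCAAT boxes, PSMB5 and PSMD8 held 1 each, and PSMD2 held no match. Over the 46 members, the antioxidant response element core was in 12 (26.1%), against 11.1% of 27305 promoters of all genes and 12.0% of 11086 promoters of tested protein-coding genes. Among the 39 tested members outside the threshold it was in 28.2%. CCAAT was in 20 members (43.5%, against 33.0% of all and 35.1% of tested protein-coding promoters), and the ETS core in 22 (47.8%, against 16.7% of all and 26.9% of tested protein-coding promoters). GAANNTTC was in none of the 46 windows, against 5.85% of all and 4.08% of tested protein-coding promoters. These are counts of letters in a fixed window and carry no test.

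Genes that act beside the proteasome were read from a list of 35, all of which were tested. Of these 3 fell and none rose, against 1.39% and 1.62% of all tested genes, and 24 lay below 0, with a median of -0.22. UBB, which encodes a chain of ubiquitin repeats, was at 275, 255, 254.5, 199 and 190 CPM after aerosol and 379, 395.5, 365, 381 and 310.5 CPM in air, with no overlap (-0.64 ± 0.12, edgeR adjusted p = 0.0149). VCP, the unfoldase that extracts substrates and also NFE2L1 from membranes, was at 328, 340, 313, 305.5 and 266 CPM after aerosol and 411, 432, 452, 410.0 and 410 CPM in air (-0.45 ± 0.08, edgeR adjusted p = 0.0169). Its groups did not overlap, and its call was lost without air library 2 or 3, with edgeR adjusted p of at most 0.0577.

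In edgeR, 13 of the 35 genes on the list had an unadjusted p under 0.05, and of these only ZFAND5 and SEM1 were higher. Among all tested genes, 9.48% were lower and 8.78% higher at that cut. DESeq2 called ZFAND5 alone as higher, and limma-voom called none. ZFAND5, which encodes a zinc finger protein that stimulates the proteasome, was higher in every aerosol library, at 158, 159, 168, 212 and 200 CPM after aerosol and 133, 137, 141, 137 and 154 CPM in air (0.35 ± 0.10, edgeR adjusted p = 0.0887). Without aerosol libraries 4 and 5 it was at 0.19 (edgeR adjusted p = 0.279). SEM1, a small lid subunit whose symbol falls outside the naming rule, was at 0.53 ± 0.23 with all libraries and at 0.16 without those 2. Among the other groups of the list, the 5 shuttle receptors ranged from -0.35 to 0.20, the deubiquitinases USP14 and UCHL5 stood at -0.15 and 0.19, and the 6 genes for NFE2L1 processing and partners ranged from -0.43 to 0.25.

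Replicate spread was larger after aerosol in 38 of the 50 members, and the share over all tested genes was not taken. No trait of these members is therefore read from it. The median coefficient of variation over members was 15.3% after aerosol and 9.55% in air. It was highest in PSME3 in both groups, at 57.6% after aerosol and 53.8% in air. The files also list 45 pseudogenes named after members, of which 5 passed the filter and 3 had a mean of at least 1 CPM in either group. The highest single value of any pseudogene was 9.99 CPM, in PSMC1P1, and no source used here says how reads shared with such copies were counted.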

How the data were processed

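Messenger RNA was measured in 10 libraries, 5 per group. The authors deposited 1 table of whole-number counts per library for 58735 Ensembl identifiers. Per the submitters' processing notes, HISAT, featureCounts 1.5.0-p3, DESeq 1.8.3 and hg38 were used, while their roles and settings, the annotation and the use of strand are not stated there. Per the labels' protocols, TRIzol served for extraction and a SMARTER kit for mRNA libraries. All columns could be assigned to samples (0 left over). MicroRNA libraries (10) were not analysed here.

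Counts were fitted in edgeR 4.0.16 (R 4.3.3) with TMM scaling and filterByExpr by group, using the robust quasi-likelihood F test with no covariate. It tested 20166 genes and left 38569 out. Called genes have a Benjamini-Hochberg adjusted p under 0.05 over all tested genes. The standard error is the absolute log2 fold change divided by the square root of F. CPM are counts scaled to the TMM-adjusted library size, and because transcript lengths were not used, levels are not compared between genes. The 95% intervals come from that standard error and include the spread between libraries, while the floor for a count of 0 covers counting error only. Ratios of 2 genes used counts plus 0.5 and an exact two-sided permutation test over 252 assignments. Symbols of all 52 members matched the identifier table, and positions came from RefSeq (GRCh38.p14, the build of hg38) by symbol.

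The members, gene lists and tests were chosen with earlier results of these data known. Full statistics are given for every member past the threshold, and per-library values also for the catalytic pairs, NFE2L1, DDI2 and POMP; from the neighbouring list the genes past the threshold are named, except 1 that is not reported here. Other members named near the threshold were chosen after their values were seen. Alternatives were RLE, upper-quartile and library-size scaling, protein-coding nuclear genes only, DESeq2 1.42.0, limma-voom (limma 3.58.1) with quality weights, 2 other low-count filters, the replicate number as a block, thresholds of 0.01 and 0.1, and leaving out each library or aerosol libraries 4 and 5 together. No 2 libraries of a group agreed within sampling noise (lowest chi-square per degree of freedom 64.3).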

Additional observations from a re-analysis of the deposited data

Results flagged for a closer look

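Among the 50 tested members, 100 groups of 5 libraries were examined for a single library far from the other 4, and 8 were found, where chance alone gives about 5%. After aerosol, PSMA1 was low in library 4 (33.1 CPM, against 42.4 to 45.3 CPM in the other 4), and PSMA7 was high in library 5 (111 CPM, against 61.8 to 67.7 CPM). PSMB2 was high in aerosol library 1 (140 CPM, against 95.5 to 107 CPM). PSMD13 and PSMG2 were high in aerosol library 5, at 80.4 CPM against 49.7 to 57.0 CPM and at 31.3 CPM against 18.2 to 21.7 CPM. PSME3 was high in aerosol library 2 (216 CPM, against 66.1 to 97.9 CPM). In air, PSMD1 and PSMD6 were high in library 5, at 215 CPM against 181 to 190 CPM and at 64.7 CPM against 53.0 to 54.7 CPM. None of the 8 was in a gene that passed the test.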

How the results depend on the processing

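All 20 alternative fits kept PSMB3, PSMB4, PSMB7, PSMD2 and PSMD8 as lower, and none called a member higher. The count of lower members, 6, became 14 with DESeq2, 12 with limma-voom and 14 at an adjusted p under 0.1 (4 under 0.01, without PSMB5 and PSMD8), and ranged from 5 to 10 when 1 library was left out, the highest without aerosol library 1. It was 9 with the replicate number as a block, which added ADRM1, NFE2L1 and PSMD3. Same-numbered libraries deviated together only weakly (correlations of 0.01 to 0.05), so the numbers are not taken as pairs. The number of members below 0 was 41, 40 and 48 with RLE, upper-quartile and library-size scaling. The 608 changed genes of the whole table became 1957 with DESeq2, 1128 with limma-voom, 87 and 1213 at thresholds of 0.01 and 0.1, and 183 to 757 when 1 library was left out. Upper-quartile scaling called 482 genes higher and 171 lower and library-size scaling 244 and 318, against 327 and 281. In the neighbouring list the 3 lower genes became 0 at 0.01 and ranged from 1 to 4 when 1 library was left out, and the 0 higher genes became 1 with DESeq2 and at 0.1. Without aerosol libraries 4 and 5 the ratio difference of PSMB8/PSMB5 was 0.62 (exact permutation adjusted p = 0.214), against 0.28 with all libraries. In that setting the differences of PSMB9/PSMB6 and PSMB10/PSMB7 were -0.001 and 0.33, against 0.12 and -0.45. The difference of PSMB10/PSMB7 ranged from -0.74 to 0.21 when 1 library was left out. With a replicate block the 3 ratio differences were unchanged at 0.28, 0.12 and -0.45 (exact sign-flip adjusted p = 0.625 for each). DDI2, at -0.025, was at 0.001, 0.053, 0.018, 0.032 and 0.045 with RLE scaling, upper-quartile scaling, the 1 CPM filter, protein-coding genes only and limma-voom, at 0.036 without aerosol libraries 4 and 5, and between -0.079 and 0.065 when 1 library was left out. Over 16 named genes, 284 of 320 settings left direction and call as they were, 18 ended a call, 10 made one and 8 reversed a sign, all of the last in DDI2. The causes were not tested.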
